A study of Mus musculus with 6 samples.

Results

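The acute phase proteins are plasma proteins that the liver secretes in changed amounts during inflammation. The 10 genes listed for this family were Saa1, Saa2, Saa3 and Saa4 (serum amyloids A), Orm1 and Orm2 (orosomucoids), Hp (haptoglobin), Hpx (hemopexin), Itih4 (an inter-alpha-trypsin inhibitor heavy chain) and Apcs (serum amyloid P component), and a feature counted for a gene if the platform annotation gave it exactly that 1 symbol. By this rule 8 of the 10 genes were measured, each by 1 feature, among 16810 genes in all. Saa1 and Saa2 had 0 features of their own, because the 2 features that carry either symbol carry both. All 8 measured genes passed the filter on dim features.

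Hepatocytes raise the transcription of these genes when cytokines, chiefly interleukin 6 and interleukin 1, act on them through STAT3, C/EBP and NF-kB factors. The serum amyloids Saa1 and Saa2 and the pentraxin Apcs are strongly inducible in mouse liver, while Saa4 is the constitutive serum amyloid of lipoproteins. Some members are made outside hepatocytes too, among them Saa3 in macrophages and fat, and Hp and Orm1 in fat. The family is known in liver disease as a blood readout of inflammation and of the secretory work of hepatocytes.

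Gene expression was measured on Affymetrix arrays in liver of 24-month-old C57BL/6 mice with the genotype SRSF3HKO, a knockout of the splicing factor gene Srsf3 in hepatocytes. Non-tumorous liver gave 3 arrays, called non-tumour 405, 483 and 623, hepatocellular carcinoma gave 3, called tumour 405, 483 and 616, and no mouse was treated. All 6 samples carry the knockout, the sources used here do not give the driver of the deletion, and liver with intact Srsf3 was not analysed here. The labels leave unstated which samples share an animal, so the p-values measure only the spread between these samples.

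The arrays differed before any comparison was made. The median intensity of features with 1 symbol ran from 122 to 197 in non-tumour and from 83.6 to 151 in tumour, so the arrays were brought to 1 distribution by quantile normalization, and levels are given as log2(intensity + 16). Non-tumour 623 had the sex-linked pattern of a male, with Xist, made from the inactive X, at 5.19 against 10.60 to 12.31 on the remaining 5, and Y-linked Eif2s3y at 8.75 against 4.18 to 5.13. The hepatocyte markers were bright on every array. Albumin (Alb) lay between 13.23 and 13.34, whereas Cyp2e1, a cytochrome P450 of pericentral hepatocytes, was at 8.44 in tumour 405 and between 11.87 and 12.95 on the others. Over all genes limma (adjusted p under 0.05) called 0 genes higher (0%) and 0 lower (0%) in tumour, while an unadjusted p under 0.05 was reached by 450 genes upward (2.68%) and 168 downward (0.999%).

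None of the 8 measured acute phase genes passed the test in either direction (limma, adjusted p from 0.917 to 0.992), and 0 of 8 passed at an unadjusted p under 0.05. The groups overlapped for all 8, where 3.95% of all genes were higher and 3.85% were lower without overlap. Of the 8 differences 3 were positive (43.8% of all genes) and 5 negative (56.2%), with a median of -0.05 log2 units, beside -0.05 over all genes. The members varied between arrays to unequal degrees. After quantile normalization Saa3 spanned 3.55 log2 units over the 6 arrays and Orm2 spanned 1.30, while the other 6 spanned between 0.16 and 0.63. Their intensities were unlike too. Saa3 lay at 1.99% to 11.5% of the array's maximum, Orm2 at 19.6% to 50.0%, Saa4 at 26.6% to 50.4% and Hpx at 82.6% to 90.2%. The part of this in the ranges was not tested.

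**Figure D1:**
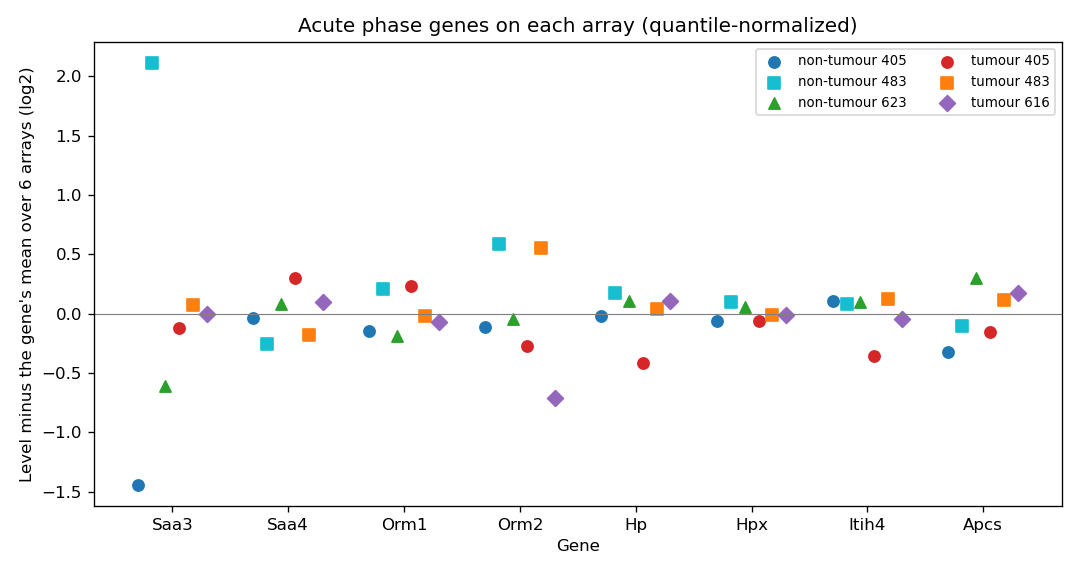
The level of each of the 8 measured genes on each array, minus that gene's mean over the 6 arrays (log2, quantile-normalized). Points are single arrays, coloured by array. Saa3 spreads over 3.55 log2 units, with non-tumour 483 highest and non-tumour 405 lowest, and the 3 tumours lie within 0.20 of each other.

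The promoters of 3 members are shown, chosen by their spread after quantile normalization. They cover the widest spread in the family (Saa3 and Orm2) and the constitutive serum amyloid that varied little (Saa4). On other scales the ranking differed. As deposited Apcs varied 2.88-fold and Orm2 2.42-fold, and after median centring Saa4 ran from 11.31 to 12.77. A promoter was found in the RefSeq table (build GRCm38.p6) for 8 of the 10 listed genes, and Orm1 and Hp had no entry. Each line gives the 250 bases before the start of transcription on the gene's own strand, and the arrays' own build (mm9) differs from the one used for these positions. Saa3 is at chr7:46715677-46715926 (- strand), Saa4 at chr7:46732604-46732853 (- strand) and Orm2 at chr4:63362199-63362448 (+ strand). Capitals mark matches, on either strand, to the C/EBP core TTNNGNAA, to the NF-kB pattern GGGNNNNNCC and to the STAT pattern TTCNNNGAA.
Saa3: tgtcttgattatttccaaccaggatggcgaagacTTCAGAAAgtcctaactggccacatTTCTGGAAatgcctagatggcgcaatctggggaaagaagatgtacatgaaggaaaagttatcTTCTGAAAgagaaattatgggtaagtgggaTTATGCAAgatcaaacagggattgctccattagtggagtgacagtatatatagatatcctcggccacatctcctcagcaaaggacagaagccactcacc
Saa4: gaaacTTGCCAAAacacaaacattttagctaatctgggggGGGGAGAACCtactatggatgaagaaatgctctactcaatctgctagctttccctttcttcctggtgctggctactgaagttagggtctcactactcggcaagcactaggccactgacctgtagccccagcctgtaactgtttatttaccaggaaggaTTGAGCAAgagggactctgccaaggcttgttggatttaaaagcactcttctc
Orm2: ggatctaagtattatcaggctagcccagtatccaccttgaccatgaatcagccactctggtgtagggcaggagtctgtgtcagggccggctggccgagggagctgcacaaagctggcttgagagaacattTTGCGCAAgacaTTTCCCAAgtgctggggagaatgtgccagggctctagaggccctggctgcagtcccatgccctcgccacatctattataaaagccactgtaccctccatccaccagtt

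Saa3 held 4 matches to the C/EBP core, starting 216, 191, 129 and 99 bases before the start, and Saa4 and Orm2 held 2 each. The core occurred in 36.9% of 32851 RefSeq promoters of the same length, so a single match is common. Saa4 alone of these 3 held the NF-kB pattern, once, at 210 bases before the start, where 45.8% of promoters have it. None of the 3 held the STAT pattern, which 7.02% of promoters have. Among the promoters not shown, Itih4 held it 51 bases before the start and Apcs 244 bases before, while Saa1, Saa2 and Hpx did not hold it. Such matches describe the letters only, and no binding was measured here.

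Saa3, the serum amyloid A that macrophages and fat make as well as liver, had log2 levels of 7.20, 10.75 and 8.04 on non-tumour arrays 405, 483 and 623. On tumour arrays 405, 483 and 616 the levels were 8.52, 8.72 and 8.64. The highest and lowest of the 6 arrays were thus both non-tumour, and the 3 tumours lay between them. The SD was 1.86 in non-tumour and 0.10 in tumour (n = 3 each), and this difference in spread was not tested. On the deposited scale the intensities were 174, 1287 and 384 (non-tumour arrays 405, 483 and 623) and 222, 444 and 323 (tumour arrays 405, 483 and 616), a range of 7.39-fold. The range of Saa3 over the 6 arrays was wider than that of 98.9% of genes.

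The group means of Saa3 were 8.66 in non-tumour and 8.63 in tumour, a difference of -0.04 ± 0.78 (SE; limma adjusted p = 0.992), with a 95% interval from -1.84 to 1.76. The value turned on single arrays. Without non-tumour 483 the difference was 1.02 ± 0.33 (unadjusted p = 0.0166, limma adjusted p = 0.953), and without non-tumour 405 it was -0.77 ± 0.75. Within the number 405 tumour stood 1.32 log2 units above non-tumour, and within 483 the difference was -2.03. In bulk tissue, fewer cells of a type and less RNA per cell cannot be told apart.

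Markers of other cell types also varied between the arrays. The mean of the 8 macrophage markers was 8.25, 9.69 and 10.45 on non-tumour arrays 405, 483 and 623, and 7.19, 10.02 and 8.55 on tumour arrays 405, 483 and 616. Within tumour this is the order of Saa3, and within non-tumour 405 is lowest for both, while 623 is highest for the markers and 483 for Saa3. The mean of the 9 measured neutrophil markers was 5.97, 7.24 and 6.98, and 6.04, 7.78 and 7.29, in the same sequence of arrays. This is the order of Saa3 within each group, and it was not particular to neutrophil markers. The mean of the 5 measured lymphocyte markers (6.34, 7.21 and 6.85, and 6.27, 6.78 and 6.75) had it too. So did that of the 6 stellate cell markers (8.55, 9.24 and 9.20, and 8.03, 9.54 and 9.12). The means of hepatocyte, adipocyte, cholangiocyte and endothelial markers did not have it in both groups. These orders are those after quantile normalization: the 3 tumour levels of Saa3 lie close together, and after median centring tumour 616 (8.82) was above tumour 483 (8.67). Many of the neutrophil and lymphocyte markers were dim, with Mmp8 at 4.92 and Nkg7 at 5.67 in non-tumour 405. Whether the order of their means comes from cells or from background signal was not tested.

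The mean of the 5 measured adipocyte markers ran from 7.85 to 8.94 in non-tumour, lowest in non-tumour 483, and from 8.61 to 9.003 in tumour. Of these 5, limma called 0, with 1 higher at an unadjusted p under 0.05. That was Fabp4, a fatty acid carrier that capillary endothelium also makes, at 1.78 ± 0.33 (SE; limma adjusted p = 0.917) and without overlap between the groups. Cidec, a lipid droplet protein that fatty hepatocytes also make, differed by 1.25 ± 0.88, Adipoq, the adiponectin gene, by -0.02 ± 0.23, Plin1, which coats the lipid droplets of fat cells, by -0.09 ± 0.22 and Lep, the leptin gene, by -0.21 ± 0.23. The part of these cells in the levels of Saa3, Hp and Orm1 was not tested.

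Saa4, the constitutive serum amyloid carried on high-density lipoprotein, lay at 11.997, 11.78 and 12.11 (non-tumour arrays 405, 483 and 623) and 12.33, 11.85 and 12.12 (tumour arrays 405, 483 and 616). The means of 11.96 ± 0.17 and 12.10 ± 0.24 (SD, n = 3 each) differed by 0.14 ± 0.19 (SE; limma adjusted p = 0.920), with a 95% interval from -0.30 to 0.58. Both arrays numbered 483 were the lowest of their groups. After quantile normalization the array with the most Saa3, non-tumour 483, thus had the least Saa4. Over the 6 arrays Pearson's r between both genes was then -0.50, given as a description of 6 points that share their arrays and scaling. After median centring Saa4 was lowest in non-tumour 405 (11.31, against 11.66 in non-tumour 483), which was also the lowest array of Saa3 (7.15).

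Orm1 and Orm2 encode orosomucoid, the alpha-1-acid glycoprotein that binds drugs and steroids in plasma. They are close copies of each other, so a signal may be shared between their features. Orm1 lay at 12.34, 12.70 and 12.30 (non-tumour arrays 405, 483 and 623) and 12.72, 12.47 and 12.42 (tumour arrays 405, 483 and 616). Its difference was 0.09 ± 0.17 (SE; limma adjusted p = 0.929), with a 95% interval from -0.30 to 0.48. The groups overlapped, with tumour 405 and non-tumour 483 side by side at the top.

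Orm2 lay at 11.68, 12.38 and 11.75 (non-tumour arrays 405, 483 and 623) and 11.52, 12.35 and 11.08 (tumour arrays 405, 483 and 616). Both arrays numbered 483 were the highest of their groups, and tumour 616 was the lowest of all. The difference was -0.28 ± 0.34 (SE; limma adjusted p = 0.917), with a 95% interval from -1.07 to 0.51. It was -0.64 without tumour 483 and 0.00 without tumour 616 (0.0031 before rounding). Orm3, the third orosomucoid and no member of the list, ran from 8.72 to 10.56, with non-tumour 405 lowest and tumour 616 highest, an order unlike that of Orm2.

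Hp and Hpx encode the scavengers of free haemoglobin and of free haem. Hp lay at 12.75, 12.95 and 12.87 (non-tumour arrays 405, 483 and 623) and 12.36, 12.81 and 12.87 (tumour arrays 405, 483 and 616). On this quantile-normalized scale tumour 405 was lowest, and the other 5 arrays lay within 0.20 of each other. The difference was -0.18 ± 0.17 (SE; limma adjusted p = 0.917), with a 95% interval from -0.57 to 0.21, and -0.01 without tumour 405.

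Hpx had the narrowest range of the 8 after quantile normalization. It lay at 13.05, 13.21 and 13.16 (non-tumour arrays 405, 483 and 623) and 13.05, 13.09 and 13.09 (tumour arrays 405, 483 and 616), a range of 0.16 log2 units. Its feature was among the 9 brightest of 24343 on every array and reached 82.6% to 90.2% of the array's maximum intensity, a position in the range of the array and not an abundance set against other genes. Quantile normalization gives equal ranks equal values, which is why 405 has the same level in both tissues. The difference was -0.06 ± 0.11 (SE; limma adjusted p = 0.928), with a 95% interval from -0.32 to 0.20. As deposited its intensity varied 1.41-fold over the arrays, and after median centring its level ran from 12.37 to 13.59, a wider range than that of Itih4 (11.94 to 12.94).

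Itih4, an inter-alpha-trypsin inhibitor heavy chain that is an acute phase protein of plasma, had levels of 12.62, 12.59 and 12.61 on non-tumour arrays 405, 483 and 623. On tumour arrays 405, 483 and 616 these were 12.15, 12.64 and 12.47. The 3 non-tumour arrays were within 0.03 of each other, while the tumours spread below and above them. The SD after quantile normalization was 0.01 in non-tumour and 0.25 in tumour, the reverse of the order in Saa3, and was not tested. As deposited the SD was 0.25 in non-tumour and 0.36 in tumour. After median centring it was 0.40 and 0.24, so the order of the spreads depended on the scaling. The difference was -0.19 ± 0.16 (SE; limma adjusted p = 0.917), with a 95% interval from -0.56 to 0.19, and -0.05 without tumour 405. After quantile normalization Hp and Itih4 had the highest correlation among the 28 pairs of members (r = 0.86 over 6 arrays), and both were lowest in tumour 405. After median centring both were lowest in non-tumour 405 (Hp 12.04, Itih4 11.94), with tumour 405 at 12.81 for Hp and 12.62 for Itih4.

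Apcs encodes serum amyloid P, the pentraxin that takes the role in mouse that C-reactive protein has in human as the main inducible one. It lay at 10.56, 10.78 and 11.19 (non-tumour arrays 405, 483 and 623) and 10.73, 10.997 and 11.06 (tumour arrays 405, 483 and 616). The difference was 0.09 ± 0.25 (SE; limma adjusted p = 0.951), with a 95% interval from -0.49 to 0.66. Non-tumour 405 was lowest and non-tumour 623 highest, so the groups overlapped fully. On the deposited scale its intensity was 3468 in non-tumour 623 and between 1206 and 2122 on the other 5 arrays.

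The members did not keep a common order over the arrays. Pearson's r over the 28 pairs ran from -0.80 to 0.86, with 19 positive and 9 negative, over 6 arrays that share their scaling. Saa4 was negative in 5 of its 7 pairs. After quantile normalization non-tumour 483 was the highest array for 4 of the 8 genes (Saa3, Orm2, Hp and Hpx), and non-tumour 405 the lowest for 3 (Saa3, Hpx and Apcs). Of the 8 genes 6 were above their own mean in non-tumour 483, against 1 in non-tumour 405. The median of the 8 levels, each taken against the gene's own mean, was 0.14 in non-tumour 483, and was lowest in tumour 405 (-0.14), followed by non-tumour 405 (-0.09). The difference between tumour and non-tumour was positive in 4 and negative in 3 members within the number 405 (1 equal), and positive in 3 and negative in 5 within 483.

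**Figure D2:**
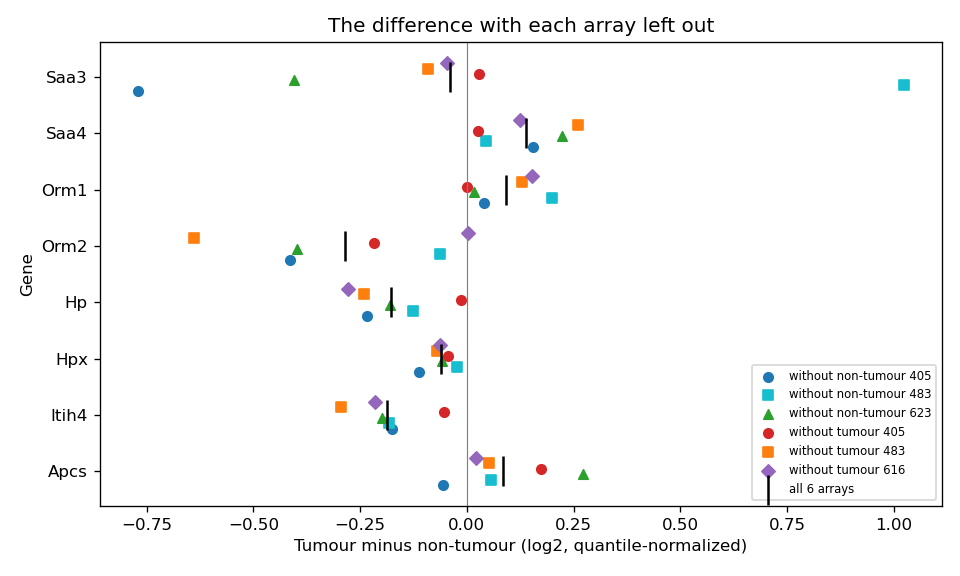
The tumour minus non-tumour difference of each gene (log2, quantile-normalized) with all 6 arrays (bar) and with each array left out in turn (points). The points of Saa3 run from -0.77 to 1.02, and those of Hpx from -0.11 to -0.02.

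The direction of most members depended on how the arrays were brought to one scale. On the deposited values 2 members were positive (15.5% of all genes) and 6 negative (84.5%), with a median of -0.17 where the median of all genes stood at -0.48. After each array was centred on its median intensity all 8 were positive (58.9% of all genes, with 41.1% negative), with a median of 0.44 where that of all genes stood at 0.07. Hp is an example, at -0.25 as deposited, -0.18 after quantile normalization and 0.36 after median centring. Saa4 (0.11, 0.14 and 0.72) and Apcs (0.06, 0.09 and 0.67) kept a positive sign on all 3 scales, and the others turned. On each of the 3 scales limma called 0 of the 8 members, with a smallest adjusted p among them of 0.614, 0.917 and 0.878 in the same order. The background as deposited was 14 genes higher (0.0832%) and 44 lower (0.262%), on a scale where the prior degrees of freedom were infinite and single genes kept no variance of their own.

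**Figure D3:**
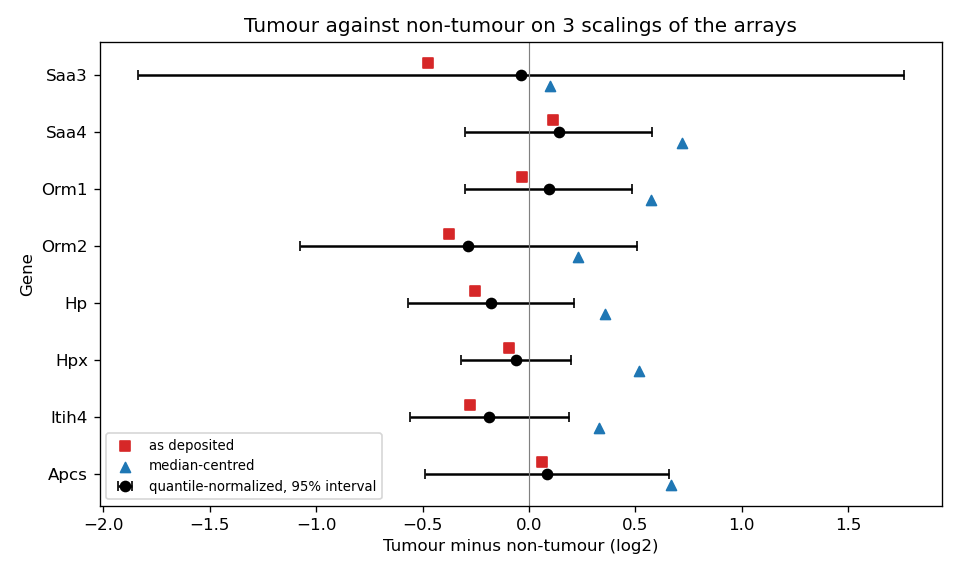
The tumour minus non-tumour difference (log2) of each gene after quantile normalization (black, with its 95% interval), as deposited (squares) and after median centring (triangles). All 8 black intervals span 0, and all 8 triangles lie to the right of 0.

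Other positive acute phase genes, which rise in inflammation, included 18 measured of 22 listed, and 0 were called higher and 0 lower (limma, also 0 and 0 at an unadjusted p under 0.05). Their median difference was -0.26, with 3 positive and 15 negative, and became 0.28 with 13 positive after median centring. The 4 with the smallest p were Itih3 (-0.51 ± 0.27, SE), another inter-alpha-trypsin inhibitor chain, Fgb (-0.36 ± 0.20), the fibrinogen beta chain, Steap4 (-0.69 ± 0.42), a metalloreductase, and Mt1 (-1.06 ± 0.64), a metallothionein that binds zinc. The limma adjusted p of each was 0.917. After quantile normalization 9 of the 18 genes were highest in non-tumour 483 and 10 lowest in tumour 405. Tumour 405 was also the lowest array for 7 of the 8 macrophage markers, but for 2 of the 8 acute phase members. Its median intensity, 83.6, was the lowest of the 6 arrays. The share over all genes and the counts on other scales were not worked out. Mt1 lay at 11.95, 12.82 and 11.47 (non-tumour arrays 405, 483 and 623) and 9.43, 11.83 and 11.80 (tumour arrays 405, 483 and 616), so that tumour 405 alone lay far below the rest. On the same scale 6 of the 8 hepatocyte markers were also lowest in tumour 405. The mean of the 8 was 11.68 there, against 12.55 to 12.83 in non-tumour and up to 12.62 in tumour. Cyp2e1, at 8.44 in tumour 405, lowered this mean most, while Alb (13.23) and Ttr (13.21) lay near their levels on the other arrays. The part of these marker levels in those of the acute phase genes was not tested.

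Negative acute phase genes, whose products fall in plasma during inflammation, included 8 measured of 10, with 0 called (limma, also 0 at an unadjusted p under 0.05). Their median difference was -0.05, or 0.54 after median centring. The 4 with the smallest p were F12 (-0.48 ± 0.29, SE), coagulation factor XII, Serpina6 (-0.17 ± 0.15), the corticosteroid carrier, Trf (-0.07 ± 0.11), the iron carrier transferrin, and Ttr (0.07 ± 0.12), the thyroxine carrier transthyretin. Among relatives of Itih4 and Apcs, 0 of 8 measured genes were called, with Itih1 at -0.39 ± 0.30, Ptx3, a pentraxin made chiefly outside hepatocytes, at -0.26 ± 0.17, and Crp, the C-reactive protein gene, at -0.29 ± 0.24.

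Of the cytokines and receptors that drive the response 12 of 16 were measured, and limma called 0 higher and 0 lower (0 and 0 also at an unadjusted p under 0.05). The 4 with the smallest p were Lifr, the receptor of leukaemia inhibitory factor (-0.69 ± 0.37, SE), Il6st, the gp130 chain shared by the interleukin 6 family (-0.40 ± 0.26), Lif itself (-0.31 ± 0.27) and Osm, oncostatin M (-0.16 ± 0.32). Lifr was at 10.56 and 10.37 in non-tumour 405 and 483 but at 9.28 in non-tumour 623, beside 9.31 to 9.42 in the tumours. Il6, Tnf, Il22 and Il6ra had no value after the filter and the rule on symbols.

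The signalling and transcription factor list had 16 measured of 18 genes, with 0 called (limma, and 0 unadjusted), 7 positive and 9 negative. Stat3, which carries the interleukin 6 signal to the nucleus, differed by -0.72 ± 0.39 (SE; limma adjusted p = 0.917). It was at 10.47, 11.30 and 10.83 (non-tumour arrays 405, 483 and 623) and 9.36, 10.60 and 10.48 (tumour arrays 405, 483 and 616). Nfkbiz, an NF-kB cofactor (-0.57 ± 0.33), Tyk2, a Janus kinase (-0.38 ± 0.23), and Cebpa, a C/EBP factor of mature hepatocytes (-0.36 ± 0.27), were the others with the smallest p. After quantile normalization non-tumour 483 was the highest array for 6 of the 16 genes, as it was for Saa3. The share over all genes was not worked out.

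**Figure D4:**
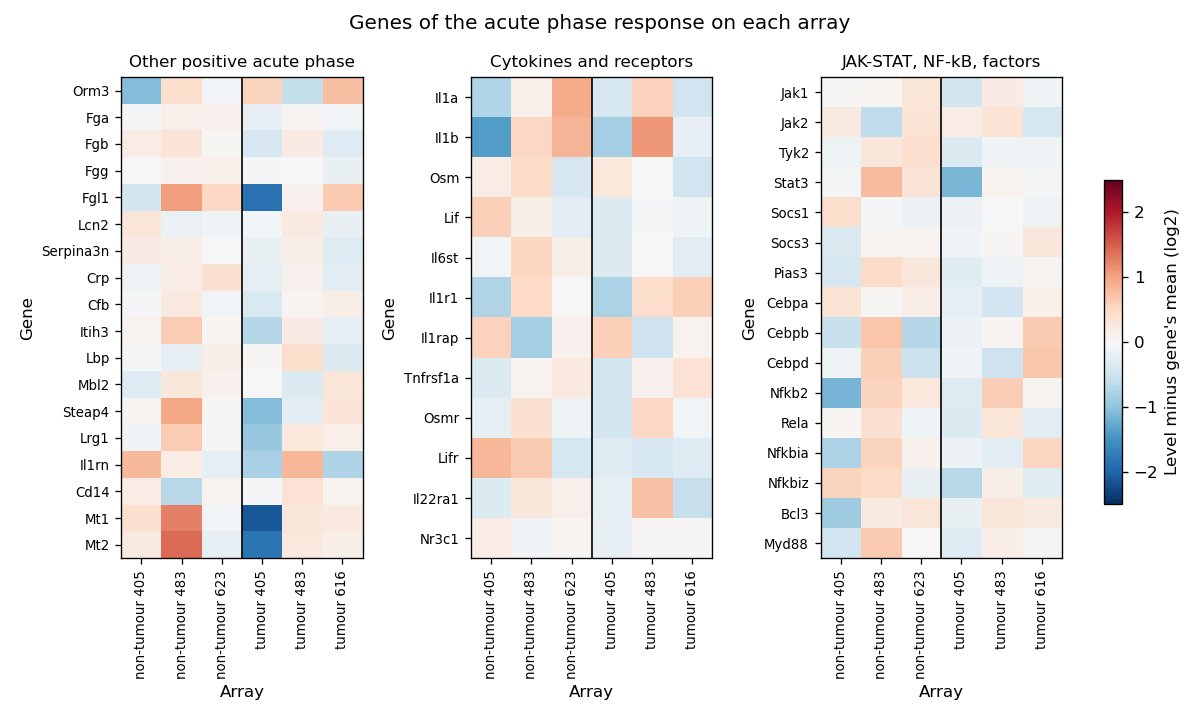
Levels of other positive acute phase genes, of cytokines and receptors, and of signalling and transcription factors on each array, minus each gene's mean over the 6 arrays (log2, quantile-normalized; red above, blue below). The vertical line parts non-tumour (left) from tumour (right). Mt1 runs from 9.43 in tumour 405 to 12.82 in non-tumour 483.

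Receptors of the secreted proteins and the haem pathway had 11 measured of 13 genes, with 0 called (limma, and 0 unadjusted). Lrp1, the receptor that takes up the hemopexin-haem complex, was the only 1 of the 71 genes in these 6 lists whose groups did not overlap (1.41%, beside 3.95% higher and 3.85% lower over all genes). It lay at 11.08, 11.93 and 11.26 (non-tumour arrays 405, 483 and 623) and 9.22, 10.86 and 11.05 (tumour arrays 405, 483 and 616), a difference of -1.05 ± 0.49 (SE; limma adjusted p = 0.917). Its lowest non-tumour array, at 11.08, lay just above its highest tumour array, at 11.05. Cd36 (0.51 ± 0.30), a lipid scavenger receptor that also binds serum amyloid A, Tlr2 (0.51 ± 0.33), a toll-like receptor, and Scarb1 (-0.21 ± 0.20), the receptor of high-density lipoprotein, were the others with the smallest p.

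The 5 genes outside the family whose levels followed Saa3 most closely over the 6 arrays were Cyp26a1 (r = 0.97), the retinoic acid hydroxylase, Sh2b1 (0.96), an adaptor of insulin and leptin receptors, Zfp595 (0.96), a zinc-finger protein, Atad3a (0.96), a mitochondrial ATPase, and Shb (0.95), an SH2-domain adaptor. They were picked by Pearson's r from 3492 genes with an SD of at least 0.5 log2 units. Cyp26a1 lay at 7.28, 9.51 and 7.78 (non-tumour arrays 405, 483 and 623) and 7.85, 8.38 and 8.53 (tumour arrays 405, 483 and 616), so that non-tumour 483 was highest and non-tumour 405 lowest, as in Saa3. With 6 arrays and so many candidates, values of this size are a description of the order only. Among the members themselves r with Saa3 was highest for Hpx (0.71) and Orm1 (0.70).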

How the data were processed

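Each array's values were intensities on a linear scale, which the authors had summarised and normalized with PLIER, per the labels; the version is not given in the sources used here, and the genome build was mm9, per the submitters' processing notes. Among 238609 features, 24343 had exactly 1 gene symbol in the platform annotation, 1797 had several and 212469 had none; 23782 of the first were matched by Entrez number to the gene table used here. Features with 1 symbol were quantile-normalized, kept if their mean over the arrays reached the 25th percentile (an intensity of 62.3), taken as log2(intensity + 16), which understates differences of dim genes, and reduced to the median of a gene's features (18257 features, 16810 genes). The groups were compared in limma 3.58.1 under R 4.3.3 (lmFit, eBayes with an intensity trend, Benjamini-Hochberg over all genes). The fit was also run on simulated gene levels with the same spread for every gene. That run did not test the filter, the pseudocount or the summary of features, and these data have unequal spreads. Precision is limited by the number of arrays, 3 a group. An exact permutation test, which was not run, could reach no p below 0.1 with 3 a group, a floor that does not apply to limma.

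The members and lists were chosen with earlier results of these data known. All members were named, with up to 4 genes of the smallest p from each other list (or all that passed) and the 5 genes most like the serum amyloids, here Saa3. Orm3, a close copy of 2 members, and Alb, Cyp2e1, Fabp4, Cidec, Adipoq, Plin1, Lep, Xist and Eif2s3y from the marker lists were named after their values were seen. Alternatives were other scalings, pseudocounts, filter and feature rules, no trend, a replicate block, and each array left out.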

Additional observations from a re-analysis of the deposited data

How the results depend on the processing

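Limma called 0 of the 8 members under every one of the 14 alternatives, and 102 of 112 member differences kept their sign. Part of these signs could not turn. Each member had 1 feature that passed the filter, so dropping the filter or taking the brightest feature left its difference unchanged. Fitting without a trend changes only the standard error and p. After median centring 5 members that were negative turned positive, Saa3 (0.10), Orm2 (0.23), Hp (0.36), Hpx (0.52) and Itih4 (0.33), and the median member went from -0.05 to 0.44. As deposited Orm1 turned to -0.035 and the median member stood at -0.17, with 14 genes called higher and 44 lower over the whole array. Leaving out 1 array at a time turned Saa3 (lowest -0.77, highest 1.02), Orm2 (-0.64 to 0.00, or 0.0031) and Apcs (-0.06 to 0.27), and moved the median member from -0.14 to 0.01. Saa3 was positive without non-tumour 483 (1.02) or tumour 405 (0.03), Orm2 without tumour 616, and Apcs negative without non-tumour 405 (-0.055). The cause of these changes was not tested.

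The labels give 405 and 483 in both groups but do not say what the numbers mark. For that reason the numbers were not taken to pair the samples. The deviations of same-numbered arrays from their group means correlated at 0.29 for 405 and -0.01 for 483 over 16810 genes. With means of 3 arrays a group, these correlations cannot decide whether same-numbered samples share an animal. With the replicate block, which draws the difference from these 2 pairs only, limma again called 0 members and 0 genes, and the median member was -0.08; Saa3 was at -0.36 and Orm2 at -0.09.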

Other observations

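The 2 features that carry both Saa1 and Saa2 name no single gene and entered no comparison. On the same scale the first lay at 5.72, 11.18 and 8.17 (non-tumour arrays 405, 483 and 623) and 7.70, 8.81 and 9.96 (tumour arrays 405, 483 and 616), a range of 5.45 log2 units. Its highest array, non-tumour 483, and its lowest, non-tumour 405, were those of Saa3. The second lay between 7.16 and 7.93, a range of 0.77, and was also highest in non-tumour 483 on this scale. As deposited it was highest in non-tumour 623 (240, against 195 in non-tumour 483). Its deposited intensities ran from 77.2 to 240, beside array medians of 83.6 to 197. Features meant for the same 2 genes thus differed in how much they moved.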
